A study of Arabidopsis thaliana with 14 samples.

Results

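The genes described here are the 150 genes of Arabidopsis thaliana, of 34218 in the count files, whose lowest level in the other libraries of the study lay furthest, on a log scale, above their highest level in rosette leaves 168 h after gibberellin delivery. Each was chosen from the read counts alone. CPM is a gene's reads per 1000000 reads in genes, L is log2(CPM + 1), and a gene's score is its lowest L in the 12 libraries of the other groups minus its highest L in the 2 libraries at 168 h. The 150 highest scores ran from 5.12 to 1.12, with a median of 1.45. The level at 168 h against the other libraries was therefore fixed by the choice. It is described below without a test. A score above 0 means that both 168 h libraries lay below all 12 others, and 1973 genes (5.77% of the files) had such a score, so that the 150 are the far end of a longer series.

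Plants of the ft-10 genotype were used throughout, controls included. The ft-10 allele disrupts FT, the mobile signal that promotes flowering, and FT had 64 to 1251 reads in a library, over the whole gene, which does not check an allele that every group carries. The plants were 30 days old and grew in soil at 22 °C under a day of 16 h of light and 8 h of dark. Silk microneedles carrying 15 mM GA3, an active gibberellin, were inserted into rosette leaves, which were collected after 3 h (3 libraries), 24 h (3 libraries) or 168 h (2 libraries). Empty silk microneedles served as a mock treatment at 24 h (3 libraries), and untreated leaves at 0 h gave 3 more. No mock or untreated library at 168 h was among the samples, so GA3, time since insertion and the further age of the plants cannot be told apart at 168 h. How many plants or leaves went into a library is not stated in the labels, and if replicates share plants the p-values measure only the spread between these samples. Reads in genes ranged from 19458893 to 23928793 per library.

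A growing leaf enlarges by loosening its primary wall, in which cellulose is tethered by xyloglucan and embedded in pectin. Expansins and xyloglucan endotransglucosylases allow the wall to yield, pectin methylesterases and lyases alter the pectin gel, and hydroxyproline-rich glycoproteins (arabinogalactan proteins, fasciclin-like proteins, extensins) line the wall and the outer face of the plasma membrane. Epidermal cells seal their outer wall with cutin and wax. Gibberellin promotes growth of this kind by removing DELLA proteins, which hold growth genes back. In the oldest leaves, senescence later dismantles the chloroplasts and their light-harvesting and Calvin cycle proteins.

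The 4 genes with the highest scores were AT2G10940, CWLP, DELTA-TIP and AT3G10720. They code for an annotated lipid-transfer family protein, a cell wall-plasma membrane linker protein, a water channel of the vacuolar membrane and an annotated pectin methylesterase inhibitor family protein. The 250 bases before the annotated start of each are shown because these genes head the ranking and the motifs of growth and stress regulators could be looked for there. Each is written 5′ to 3′ on the strand of its gene, from the RefSeq genome TAIR10.1, with matches to the 11 motifs named further on in capitals (either strand). The windows are chr2:4312163-4312412 on the minus strand for AT2G10940, chr3:7796461-7796710 on the minus strand for CWLP, chr3:5505110-5505359 on the plus strand for DELTA-TIP and chr3:3357755-3358004 on the minus strand for AT3G10720.
AT2G10940: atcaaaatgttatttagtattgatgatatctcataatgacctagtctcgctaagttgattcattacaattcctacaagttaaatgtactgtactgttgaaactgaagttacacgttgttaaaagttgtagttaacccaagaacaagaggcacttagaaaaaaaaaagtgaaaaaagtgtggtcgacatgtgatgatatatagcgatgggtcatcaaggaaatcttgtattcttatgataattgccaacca
CWLP: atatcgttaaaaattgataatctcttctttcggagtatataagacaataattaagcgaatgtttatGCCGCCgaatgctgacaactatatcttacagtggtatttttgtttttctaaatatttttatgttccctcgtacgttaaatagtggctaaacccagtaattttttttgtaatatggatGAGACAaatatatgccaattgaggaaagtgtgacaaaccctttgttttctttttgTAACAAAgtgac
DELTA-TIP: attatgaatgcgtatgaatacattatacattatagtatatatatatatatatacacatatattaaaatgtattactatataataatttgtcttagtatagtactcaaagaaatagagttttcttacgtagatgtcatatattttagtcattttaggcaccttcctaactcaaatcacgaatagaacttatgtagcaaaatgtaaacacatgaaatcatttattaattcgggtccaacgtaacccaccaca
AT3G10720: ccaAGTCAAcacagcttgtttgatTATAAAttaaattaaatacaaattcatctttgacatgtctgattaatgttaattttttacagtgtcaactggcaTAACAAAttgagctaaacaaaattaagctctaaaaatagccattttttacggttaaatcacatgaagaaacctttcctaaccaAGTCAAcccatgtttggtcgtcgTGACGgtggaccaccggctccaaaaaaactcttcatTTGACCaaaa

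The drop was shared by genes of very different read numbers. The 150 genes together held 4.93% ± 0.217 of gene reads in untreated leaves (SD, n = 3), 4.09% ± 0.893 at 3 h of GA3 (n = 3), 4.65% ± 1.16 at 24 h of GA3 (n = 3) and 3.46% ± 0.414 at 24 h of mock treatment (n = 3). At 168 h they held 0.694% and 0.544%. The median gene stood at 33.7, 36.6 and 33.7 CPM in the untreated libraries and at 2.57 and 2.11 CPM in the 168 h libraries. Set against its mean over the other 12 libraries, a gene kept a median of 8.74% of its level at 168 h. That share ran from 0% to 35%, with 7 genes under 1%, 41 under 5% and 80 under 10%. In 37 genes both 168 h libraries lay below 1 CPM, and 7 genes had 0 reads in at least 1 of them. These shares are descriptions of the choice. Bulk RNA does not separate fewer cells of a type from less RNA per cell, and that holds for every value here.

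**Figure D1:**
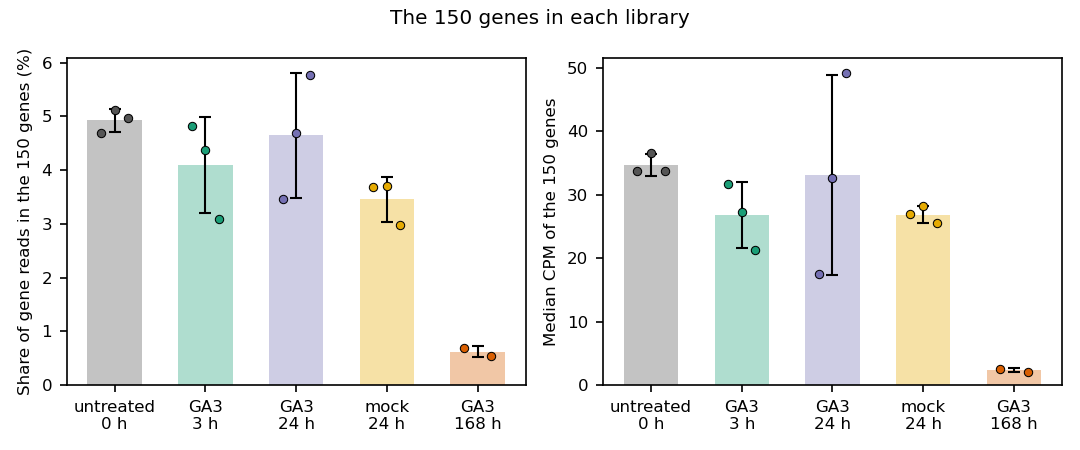
Share of all gene reads held by the 150 genes (left, percent) and their median CPM (right) in each of the 14 libraries. Points are libraries, bars are group means and error bars are SD (n = 3, or n = 2 at 168 h). The 168 h libraries sit at 0.694% and 0.544%, and the GA3 24 h libraries spread from a median of 17.5 to 49.1 CPM.

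Between replicates at 168 h, 103 of the 150 genes were higher in replicate 1 and 46 in replicate 2. The other 12 libraries were not level either. Medians over the 150 genes were 31.7, 27.3 and 21.3 CPM at 3 h of GA3, 17.5, 32.7 and 49.1 CPM at 24 h of GA3 and 26.9, 28.2 and 25.5 CPM in the mock group. The first and the third GA3 24 h library thus stood below and above all the rest. Replicate 1 of that group was the lowest of the 12 for 42 genes, and replicate 3 was the highest for 61. On the first principal component of all libraries, which carried 33.3% of the variance, the same replicate 1 lay at -25.2, nearer to the 168 h libraries at -89.1 and -107 than any other library of the 12. Across the 12 libraries the coefficient of variation of a gene had a median of 41.4% over the 150, against 25.7% over the 15573 tested genes with at least the lowest mean level among the 150. GH9B7, an endoglucanase family gene, was the steadiest at 14%, and AT2G16630, of the Ole e 1 and extensin family, the least steady at 112%.

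**Figure D2:**
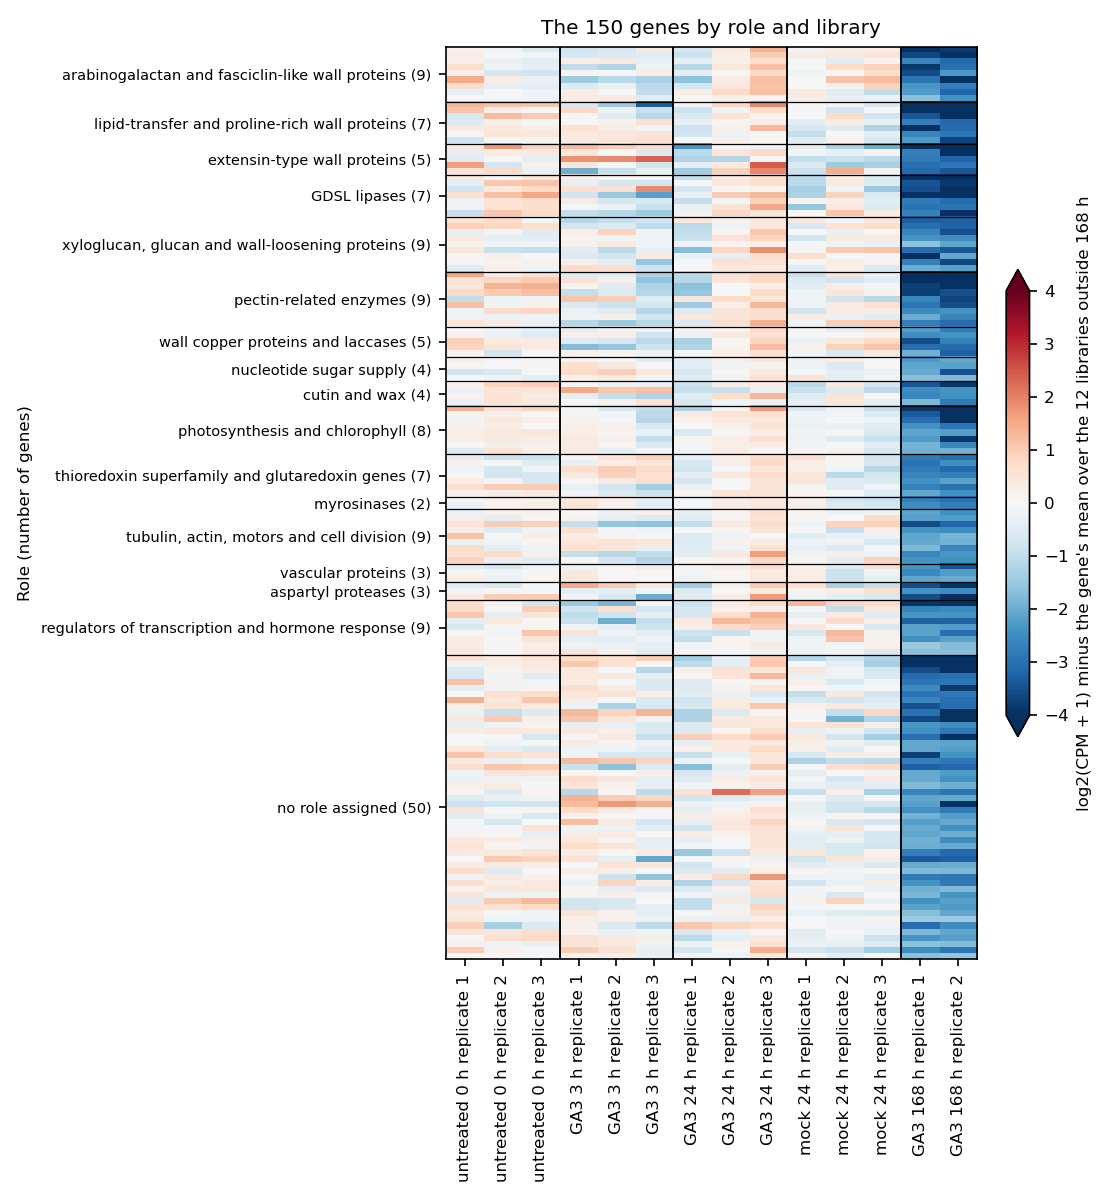
The 150 genes (rows, grouped by role, ranked by score within a role) in the 14 libraries (columns). Colour is log2(CPM + 1) minus the gene's mean over the 12 libraries outside 168 h, from blue (lower) to red (higher), with the scale ending at 4 either way. Both 168 h columns are blue in every row, which the choice of genes fixed, and GA3 24 h replicate 3 is the reddest of the other columns.

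By annotated product or by gene name, 100 of the 150 genes were placed by hand in 16 roles, assigned after the genes were known. Wall, extracellular and cuticle roles took 55 of them, with no like count made for all genes. Photosynthesis and chlorophyll had 8, cytoskeleton and cell division 9, and regulators of transcription and hormone response 9. The other 50 had no assigned role. Of the 150, 149 were protein coding and 1 was a long non-coding RNA. Symbols are those of the TAIR10.1 annotation, which named 79 of the genes, and the remainder are given by locus identifier.

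Lipid-transfer and proline-rich wall proteins, a group of 7, held the 2 highest scores. AT2G10940 (chr2:4310321-4312162, minus strand) stood at 1058, 940.2 and 898 CPM in untreated leaves, 266, 152 and 40.5 CPM after 3 h of GA3, 378, 753 and 1583 CPM after 24 h of GA3, 394, 387 and 266 CPM after 24 h of empty needles, and 0.0455 and 0.197 CPM at 168 h. The 168 h values rest on 1 read and 4 reads, and every 3 h and 168 h library lay below every untreated one. CWLP (chr3:7794758-7796460, minus strand), which links wall and plasma membrane, had 268, 141 and 120.4 CPM (untreated), 216, 105 and 65 CPM (GA3, 3 h), 67.7, 107 and 205 CPM (GA3, 24 h), 115, 68 and 113 CPM (mock, 24 h) and 1.82 and 0.491 CPM (GA3, 168 h). None of the 12 earlier libraries came near the 168 h pair. PRP4, a proline-rich wall protein, ranged from 209.5 to 1085 CPM in the 12 other libraries and 41.2 and 10.6 CPM at 168 h. LTPG1 and LTPG2, membrane-anchored lipid-transfer proteins that help to carry wax to the surface, kept 13.6% and 11.1% of their mean over the other 12 libraries. LP1, the lipid transfer protein LTP1, kept 13.5%.

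AT3G22121, the non-coding gene, needs a separate reading, because it lies on the opposite strand inside CWLP (chr3:7794956-7796327, plus strand). Its reads equalled the reads counted against CWLP on the opposite strand within 2 reads in every library (341 and 343 in untreated replicate 1, 0 and 0 at 168 h). They came to 3.38% to 6.89% of the CWLP reads in the 12 libraries. Opposite-strand reads made up 4.88% to 5.51% of a whole library, a sum over all genes and not the share of a typical gene. In CWLP this share was 5.15% (untreated), 4.52% (GA3, 3 h), 4.31% (GA3, 24 h) and 5.61% (mock, 24 h). The median share over the genes described here was 1.06%, 0.932%, 0.649% and 0.999% in the same groups, so CWLP stood above the median gene in each. Reads of this locus and opposite-strand reads of CWLP cannot be told apart. AT3G22121 had 15.3, 7.4 and 5.91 CPM in untreated leaves and 0 reads in both 168 h libraries, which makes the untreated level at least 134.8-fold higher against a floor of 3 counts over the 168 h group.

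Arabinogalactan and fasciclin-like proteins numbered 9. AGP21, a short arabinogalactan peptide (chr1:20648465-20648891, minus strand), had 65.7, 51.3 and 38.1 CPM (untreated), 32.8, 36 and 74.7 CPM (GA3, 3 h), 36.2, 75.1 and 152 CPM (GA3, 24 h), 51.3, 67.1 and 70.1 CPM (mock, 24 h) and 1.96 and 3.05 CPM (GA3, 168 h). FLA2, a fasciclin-like protein of the wall, had 187, 153 and 135 CPM (untreated), 94.4, 101 and 112 CPM (GA3, 3 h), 83, 182 and 299.8 CPM (GA3, 24 h), 191, 200.1 and 214 CPM (mock, 24 h) and 11.3 and 6.53 CPM (GA3, 168 h). In both genes the highest value was GA3 24 h replicate 3 and the untreated and mock groups lay well above 168 h. FLA7, FLA13, AGP12 and AGP18 ran at 22.8 to 52.5 against 4.23 and 2.8 CPM, 56.3 to 292 against 7.87 and 15.2 CPM, 61.9 to 184 against 8.05 and 21.3 CPM and 13.6 to 123 against 4.91 and 1.08 CPM, the first range covering the 12 other libraries and the last pair the 168 h libraries. FLA8, FLA16 and AGP9 kept 13.7%, 23.4% and 14.2%. The summed level of all 9 was 502 to 1477 CPM in the 12 libraries and 85.6 and 77.0 CPM at 168 h. Summed values of a role follow its most read genes.

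Extensin-type genes kept the least as a summed level, 2.54% of their mean over the other 12 libraries, against 5.53% to 18.5% in the other roles. AT3G16670, of the Ole e 1 and extensin family, had 69.8, 169 and 97.4 CPM (untreated), 124, 101 and 87.7 CPM (GA3, 3 h), 9.28, 53.5 and 42.9 CPM (GA3, 24 h), 39.7, 20.8 and 12.4 CPM (mock, 24 h) and 0.909 and 0 CPM (GA3, 168 h). It was lower in all GA3 24 h and mock libraries than in untreated ones. AT2G16630, of the same family, had 8.14, 11.8 and 8.54 CPM (untreated), 42.7, 45.5 and 62.6 CPM (GA3, 3 h), 4.45, 4.6 and 11.7 CPM (GA3, 24 h), 5.34, 5.96 and 4.98 CPM (mock, 24 h) and 0.819 and 0.344 CPM (GA3, 168 h), and all 3 h values stood above every other value. AT5G15780 ran from 3.8 to 68.4 CPM in the 12 other libraries and 0.591 and 0.786 CPM at 168 h. LRX2 and AT4G18670, leucine-rich repeat proteins with an extensin domain, kept 2.53% and 6.32%. The 5 genes together summed to 37.3 to 239 CPM before and to 5.5 and 1.92 CPM at 168 h.

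Pectin-related genes numbered 9. AT3G10720 (chr3:3354406-3357754, minus strand) had 260.4, 108 and 137 CPM (untreated), 62.1, 63.2 and 36.9 CPM (GA3, 3 h), 41.8, 135 and 157 CPM (GA3, 24 h), 47.1, 134 and 73.2 CPM (mock, 24 h) and 1.86 and 2.01 CPM (GA3, 168 h). Its 3 h libraries, GA3 24 h replicate 1 and mock replicate 1 were the lowest of the earlier ones. DGR2, a protein of the DUF642 family, had 22.2 to 142 CPM in the 12 other libraries and 1.91 and 0.197 CPM at 168 h. AT4G23820, AT5G48900, AT3G07010 and AT3G06770, which are annotated as pectin lyase-like, kept 5.19%, 7.18%, 14.5% and 9.04%. GALS1, a galactan synthase that builds side chains of pectin, kept 7.6%. TBL45, of a family of wall polysaccharide acetyltransferases, kept 1.78%.

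Xyloglucan, glucan and loosening genes also numbered 9. XTH7, a xyloglucan endotransglucosylase (chr4:17775370-17777445, minus strand), had 157, 191 and 107 CPM (untreated), 50.2, 57.3 and 64.4 CPM (GA3, 3 h), 156, 125 and 152 CPM (GA3, 24 h), 146, 107 and 153 CPM (mock, 24 h) and 10.7 and 10.9 CPM (GA3, 168 h). It dipped at 3 h of GA3 with no overlap with any other earlier group, returned by 24 h, and was lowest at 168 h. FUC95A, a fucosidase acting on xyloglucan, had 207, 189 and 166 CPM (untreated), 63.1, 71.3 and 51.3 CPM (GA3, 3 h), 51.1, 92.2 and 144 CPM (GA3, 24 h), 68.4, 157 and 178 CPM (mock, 24 h) and 12.3 and 10.3 CPM (GA3, 168 h). XTH8 ran from 8.2 to 37.6 CPM in the 12 other libraries and 1.96 and 0.59 CPM at 168 h, and XTH6 from 71.6 to 194 CPM in the 12 other libraries and 4.37 and 28.6 CPM at 168 h. Of the XTH6 values at 168 h, replicate 2 was the higher. EXPA5, an expansin, and EXLA2, an expansin-like protein, kept 21.1% and 4.81%.

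The GDSL lipases, esterases and acylhydrolases of which several act on cutin or wall esters, contributed 7 genes. AT1G29670 had 161, 127 and 178 CPM (untreated), 152, 133 and 130.5 CPM (GA3, 3 h), 63.8, 158 and 205 CPM (GA3, 24 h), 59.1, 156 and 82.9 CPM (mock, 24 h) and 5.32 and 5.21 CPM (GA3, 168 h). AT3G16370 had 117, 307 and 323 CPM (untreated), 117, 92 and 86.4 CPM (GA3, 3 h), 143, 198 and 234 CPM (GA3, 24 h), 68.8, 194 and 99.2 CPM (mock, 24 h) and 12.5 and 9.04 CPM (GA3, 168 h), and AT5G45950 ran from 8.17 to 92.3 CPM in the 12 other libraries and 1.23 and 0.393 CPM at 168 h. What was kept at 168 h ran from 0.755% in AT4G18970 to 8.62% in AT1G29660. Cutin and wax genes were fewer. GPAT8, an acyltransferase of cutin synthesis, had 9.13 to 41.4 CPM in the 12 other libraries and 1.05 and 0.442 CPM at 168 h. CER2, needed for the longest wax chains, had 29.2, 49.1 and 49.9 CPM (untreated), 102, 76 and 78.6 CPM (GA3, 3 h), 17.5, 17.9 and 28.2 CPM (GA3, 24 h), 17.9, 23.3 and 16 CPM (mock, 24 h) and 5.18 and 5.85 CPM (GA3, 168 h), with its 3 h values above all others. CYP86A2, a fatty acid hydroxylase of cutin synthesis, kept 20.6%, and HTH (HOTHEAD), which keeps organ surfaces from fusing, kept 11%.

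**Figure D3:**
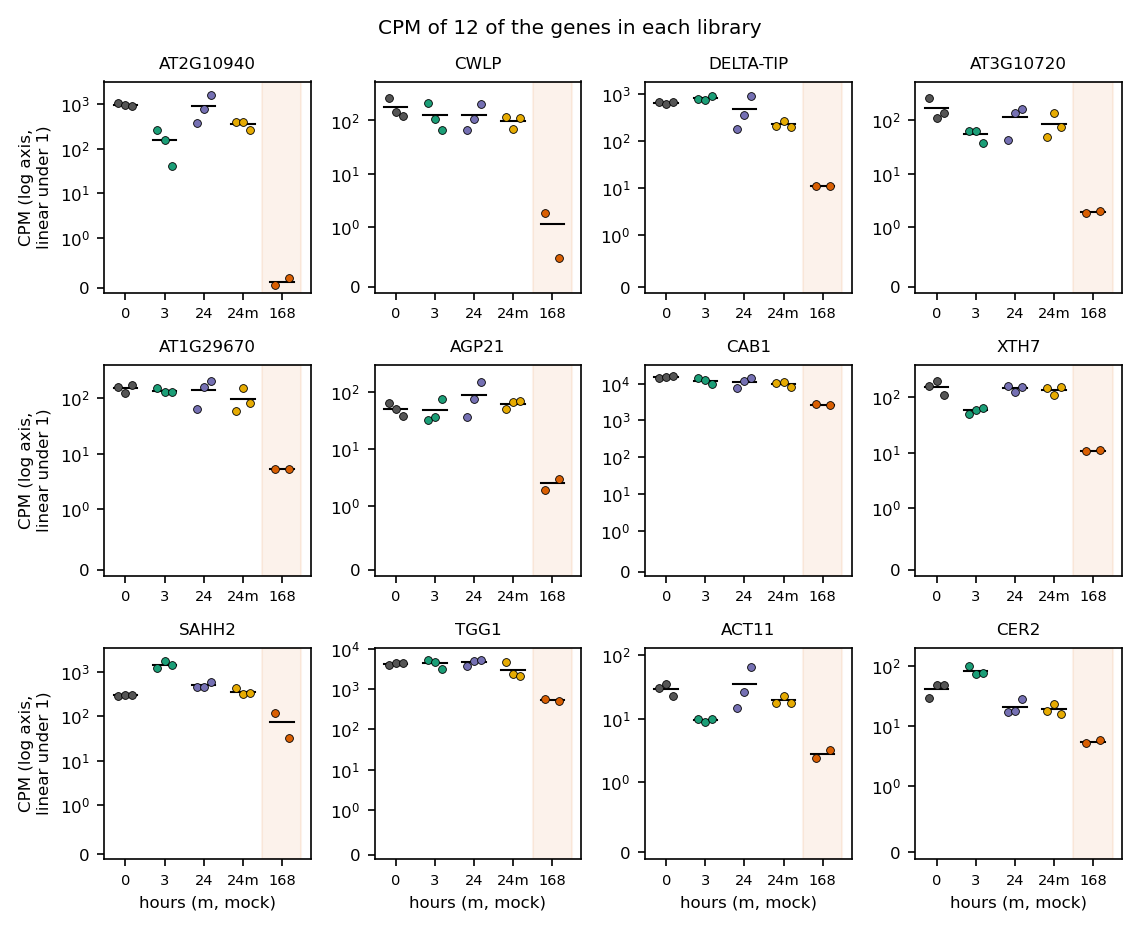
CPM of 12 of the genes in each library, on an axis that is logarithmic above 1 CPM and linear below it. Points are libraries (untreated at 0 h, GA3 at 3, 24 and 168 h, mock at 24 h as 24m), black lines are group means, and shading marks 168 h. AT2G10940 falls from 898 to 1058 CPM in untreated leaves to 0.0455 and 0.197 CPM, whereas CAB1 keeps 2756 and 2554 CPM.

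Wall copper proteins and laccases, which oxidise phenolics or resemble such oxidases, comprised 5 genes. SKU5, a membrane-anchored protein that steers directional growth, had 358, 288 and 251 CPM (untreated), 59, 67.7 and 112 CPM (GA3, 3 h), 85.3, 221 and 463 CPM (GA3, 24 h), 222, 377 and 431 CPM (mock, 24 h) and 23.3 and 22.4 CPM (GA3, 168 h). LAC11 and LAC17, laccases of lignin formation, kept 12.4% and 12.2%. Nucleotide sugar supply, which feeds polysaccharide synthesis, had 4 genes, including UDG4, a UDP-glucose dehydrogenase, at 14.6 to 51.4 against 5.59 and 1.38 CPM and the sucrose synthase SUS5 at 3.28 to 8.01 against 0.819 and 0.737 CPM (12 other libraries, then 168 h).

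By mean CPM over the 12 other libraries the most read of the 150 were CAB1, RBCS3B, TGG1, RBCS2B and CA1, without correction for gene length. CAB1 (LHCB1.3), a light-harvesting protein of photosystem II, had 14009.7, 15224 and 16308 CPM in untreated leaves, 13950.3, 12879 and 9517 CPM after 3 h of GA3, 7716, 12061 and 14119 CPM after 24 h of GA3, 10144, 11245 and 7924 CPM after 24 h of empty needles, and 2756 and 2554 CPM at 168 h. LHB1B1 (LHCB1.4), a close copy, had 1473, 896 and 1047 CPM (untreated), 516, 360.1 and 285 CPM (GA3, 3 h), 231, 621 and 1825 CPM (GA3, 24 h), 368, 486 and 287 CPM (mock, 24 h) and 36.7 and 18.2 CPM (GA3, 168 h). CAB1 kept 22% of its mean over the 12 libraries and LHB1B1 3.92%. RBCS3B and RBCS2B, small subunits of Rubisco, ran from 3448 to 7757 CPM in the 12 other libraries and 999 and 718 CPM at 168 h and from 1547 to 4614 CPM in the 12 other libraries and 409 and 153 CPM at 168 h. CA1, a chloroplast carbonic anhydrase, had 3276, 3544 and 3033 CPM (untreated), 3277, 2848 and 1453 CPM (GA3, 3 h), 3937, 4465 and 4671 CPM (GA3, 24 h), 2724, 2816 and 2093 CPM (mock, 24 h) and 298 and 22.6 CPM (GA3, 168 h). The libraries at 168 h stood far apart for CA1, replicate 2 being the lower. PCB2, an enzyme of chlorophyll synthesis, PTAC16, found in the transcriptionally active plastid chromosome, and PQL3, a subunit linked to the chloroplast NDH complex, kept 11.5%, 21.7% and 1.56%. TGG1 and TGG2 are the myrosinases that split glucosinolates when tissue is damaged. TGG1 had 3930.1, 4369 and 4289.9 CPM (untreated), 5108, 4635 and 3183 CPM (GA3, 3 h), 3726, 4802 and 5196 CPM (GA3, 24 h), 4584, 2346 and 2151 CPM (mock, 24 h) and 565 and 493 CPM (GA3, 168 h), and TGG2 ran from 1509 to 3402 CPM in the 12 other libraries and 435 and 356 CPM at 168 h.

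A run of thioredoxin superfamily genes on chromosome 4 supplied 5 members that sit next to each other on the plus strand (AT4G15660, AT4G15670, AT4G15680, AT4G15690 and AT4G15700, chr4:8925571-8938124). AT4G15670 had 3.43 to 14.1 CPM in the 12 other libraries and 0.136 and 0 CPM at 168 h, AT4G15690 6.82 to 20.8 CPM in the 12 other libraries and 0.637 and 1.28 CPM at 168 h and AT4G15660 3.43 to 18.2 CPM in the 12 other libraries and 0.409 and 0.0983 CPM at 168 h. Their coding sequences share 88.3% to 93.2% of aligned bases, those of RBCS3B and RBCS2B 94.3%, those of LHB1B1 and CAB1 86.8% and those of TGG1 and TGG2 79.8%. Copies this alike can exchange or lose reads, so single values of these genes are uncertain.

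The cytoskeleton with cell division and the regulators had 9 genes each. ACT11, an actin, had 30.9, 35.3 and 22.9 CPM (untreated), 9.86, 8.84 and 9.68 CPM (GA3, 3 h), 14.7, 26.1 and 65.4 CPM (GA3, 24 h), 17.9, 23.1 and 17.4 CPM (mock, 24 h) and 2.41 and 3.19 CPM (GA3, 168 h). TUB8 and TUA2, tubulins, kept 17.8% and 20.4%. TRM3, annotated as a LONGIFOLIA protein after a family that promotes cell elongation, kept 6.71%, POK2, a kinesin that guides the division plane, 5.05%, and TOPII, a topoisomerase used in replication, 6.94%. Among regulators, AT5G50915, a helix-loop-helix factor, ran from 7.09 to 70.9 CPM in the 12 other libraries and 0.864 and 0.737 CPM at 168 h. BZIP34, a leucine zipper factor, had 8.77, 16.2 and 12.4 CPM (untreated), 5.81, 2.3 and 5.52 CPM (GA3, 3 h), 15.4, 30.3 and 26.9 CPM (GA3, 24 h), 11.3, 20.7 and 13.8 CPM (mock, 24 h) and 0.318 and 0.344 CPM (GA3, 168 h). ARR6, a type-A regulator that damps cytokinin responses, and LBD38, a factor of nitrate response, ran at 3.41 to 18.9 against 0.864 and 0 CPM and 24 to 106 against 7.87 and 9.97 CPM (12 other libraries, then 168 h). AT2G14900 belongs to the gibberellin-regulated (GASA) family and had 11.2, 6.35 and 13.3 CPM (untreated), 3.14, 10.5 and 3.4 CPM (GA3, 3 h), 3.42, 7.06 and 7.33 CPM (GA3, 24 h), 6.0, 2.72 and 8.6 CPM (mock, 24 h) and 0.136 and 0.197 CPM (GA3, 168 h). AT1G29500 and AT4G34790, of the SAUR family of auxin-responsive genes, kept 14.4% and 1.74%.

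Among the remaining genes, DELTA-TIP (TIP2;1, chr3:5505360-5507050, plus strand) had 690.5, 603 and 679 CPM in untreated leaves, 774, 740.2 and 922 CPM after 3 h of GA3, 179, 367 and 927 CPM after 24 h of GA3, 209.6, 269 and 201 CPM after 24 h of empty needles, and 11.2 and 11.2 CPM at 168 h. Mock values lay below all untreated ones, and the 168 h values below all others. AT1G04800, a glycine-rich protein, ran from 16.4 to 92 CPM in the 12 other libraries and 1.77 and 1.33 CPM at 168 h. AT1G78820, a lectin-like protein, ran from 9.81 to 35.6 CPM in the 12 other libraries and 1.0 and 0.491 CPM at 168 h, and AT5G50740, of the heavy metal transport family, from 5.94 to 26.4 CPM in the 12 other libraries and 0.273 and 0.393 CPM at 168 h. Aspartyl proteases AT5G07030, AT3G52500 and AT1G09750 kept 1.6%, 17.3% and 2.74%. The phloem proteins SEOR1 and SEOa, which form filaments in sieve elements, kept 17.3% and 22.2%, and XCP1, a peptidase of maturing xylem, kept 11.2%. The whole list of 14 vascular markers, which includes these genes, summed to 956 to 1139 CPM in untreated leaves and to 933 and 1221 CPM at 168 h. That sum follows the most read markers. By gene, 8 of the 14 were at least 2-fold lower at 168 h than untreated and 0 higher (median log2 fold change -1.19).

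At the edge of the choice, the last 5 genes taken were EXPA5, AT4G16155, AGL87, FAP3 and AT5G04680, with scores from 1.14 to 1.12. FAP3, a fatty-acid-binding protein, had 1.98 to 20.1 against 0.364 and 0.0491 CPM, and AT5G04680, an ankyrin repeat protein, 4.06 to 8.27 against 1.14 and 1.33 CPM (12 other libraries, then 168 h). AT4G16155, a dihydrolipoamide dehydrogenase, had 44.9 to 96.7 against 19.9 and 18.5 CPM, and AGL87, a MADS-box gene, 3.58 to 9.1 against 1.09 and 1.08 CPM. The next 5, left outside, were AT4G04745, RPL15, AT5G44020, PG2 and sks5, with scores from 1.12 to 1.11. RPL15, a ribosomal protein, had 159 to 405 against 72.8 and 32.9 CPM, PG2, a polygalacturonase, 73.3 to 269.9 against 33.3 and 21 CPM, and sks5, a relative of SKU5, 92.8 to 777 against 42.5 and 18.2 CPM. AT4G04745, with no annotated function, had 3.1 to 24.7 against 0.50 and 0.884 CPM, and AT5G44020, an acid phosphatase family gene, 42 to 346 against 1.68 and 18.9 CPM. Nothing separates these groups but the rank.

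The choice did not compare the 4 earlier groups with each other, but it used their values through the lowest of the 12 libraries. A low value in any earlier library lowered a gene's score. The counts and medians below, among the 4 earlier groups, are therefore not independent of the choice. The 5 comparisons among these groups were tested with edgeR's quasi-likelihood test on all 20077 genes that passed the filter on low counts, which all 150 passed. Adjusted p-values are Benjamini-Hochberg values over those genes, with a threshold of 0.05. The comparisons share libraries with each other, so their results are given side by side and not as independent evidence.

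At 3 h of GA3, 4 of the 150 genes were higher and 17 lower than in untreated leaves. Over all tested genes 8.55% were called higher and 5.64% lower, so the 14% of the 150 called in either direction stood beside 14.2% of all genes. The median log2 fold change of the 150 was -0.28, against 0.00 for all genes, and 104 of the 150 fits were below 0. XTH7 fell by 1.52 on the log2 scale (SE 0.209, adjusted p = 0.00113), from 152 ± 42.3 to 57.3 ± 7.1 CPM (SD, n = 3 each). AT1G06830, a glutaredoxin, fell from 30.1 ± 4.44 to 8.84 ± 3.59 CPM (log2 fold change -1.90, SE 0.334, adjusted p = 0.00412). TRM3 changed by -2.33 (SE 0.431, adjusted p = 0.00530) and FUC95A by -1.71 (SE 0.386, adjusted p = 0.0137). The largest falls were those of AT4G18970 at -2.85 and AT2G10940 at -2.79. The others were AT4G23820, ACT11, SKU5, BZIP34, NPGR1, SBH2, AT3G06770, AT1G29660, GER1, AT3G10720 and AT3G16370, with changes from -1.37 to -2.09. AT3G16370 was the single fall in which the 3 h and untreated libraries overlapped. DESeq2 called 7 members higher and 30 lower, beside 11.5% and 9.18% of all genes to which it gave an adjusted p.

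The 4 genes that rose at 3 h were SAHH2, AT2G16630, AT3G59890 and SFH3. SAHH2, an enzyme that recycles S-adenosylhomocysteine, rose from 300.3 ± 6.54 to 1484 ± 255 CPM (log2 fold change 2.19, SE 0.384, adjusted p = 0.00409). Its values were 293, 303 and 306 CPM in untreated leaves and 1267, 1764 and 1420.4 CPM at 3 h. AT2G16630 rose from 9.49 ± 2.0 to 50.3 ± 10.8 CPM (2.28, SE 0.400, adjusted p = 0.00406). AT3G59890, annotated as a dihydrodipicolinate reductase of lysine synthesis, rose by 1.54 (SE 0.280, adjusted p = 0.00489) and SFH3, a SEC14-like lipid-transfer protein, by 1.07 (SE 0.243, adjusted p = 0.0139). All 4 had higher values in every 3 h library than in any untreated one. At 168 h SAHH2 was at 118 and 33.1 CPM and AT3G59890 at 0.182 and 0.197 CPM, below every earlier library. No mock library at 3 h was among the samples, so needle insertion and GA3 cannot be told apart there.

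Empty needles at 24 h left SFH3 as the only call. It fell from 8.67 ± 2.49 to 3.54 ± 0.421 CPM (log2 fold change -1.32, SE 0.250, adjusted p = 0.0440). Reads on the strand opposite to SFH3 made up 32.6% of its reads in untreated leaves and 63.7% in mock, and their part in the call was not tested. Over all genes 0.777% were called, 0.608% higher and 0.169% lower. No member was called higher by edgeR, and 1 was at an unadjusted p under 0.05 in that direction, where 9.25% of all genes were. In the other direction 29 were, or 19.3% of the 150, beside 6.95% of all genes. DESeq2 called 0 members higher and 7 lower, beside 3.73% and 1.7% of all genes. The median of the 150 was -0.32, against 0.00 for all genes, with 109 fits below 0. The largest unadjusted falls did not pass in edgeR, among them DELTA-TIP at -1.57 with an adjusted p of 0.126. In DESeq2 DELTA-TIP was called (-1.57, adjusted p = 0.0189). The other DESeq2 calls were AT3G12710, SFH3, AT1G06830, XIB, CER2 and RBL1.

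After 24 h of GA3 only AT1G12460, a leucine-rich repeat receptor-like kinase, was called against untreated leaves. It rose from 8.09 ± 1.32 to 14.1 ± 0.731 CPM (log2 fold change 0.85, SE 0.188, adjusted p = 0.0264). Over all genes 2.92% were called higher and 2.0% lower by the same test. No member was called lower. At an unadjusted p under 0.05 there were 9 lower, where 10.6% of all genes were. DESeq2 called 3 members higher and 3 lower, beside 7.45% and 5.1% of all genes. The median of the 150 was 0.16, against 0.02 for all genes, and 61.3% of the fits lay above 0, against 51.5% of all. It turned to -0.21 without GA3 24 h replicate 3, so a single library decides its sign.

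Gibberellin against empty needles at 24 h is the comparison in which treatment alone differed. None of the 150 genes passed in edgeR, nor did any of the 20077 genes (0.0% called higher and 0.0% lower). At an unadjusted p under 0.05 there were 1322 genes (6.58%), of which 29 were members. All 29 were higher with GA3, or 19.3% of the 150, against 3.66% of all genes that were higher at that level. DESeq2 called 3 members higher and none lower, beside 0.0919% and 0.135% of all genes. The 3 were SFH3, AT5G12940, a leucine-rich repeat protein, and AT5G62720, a membrane protein. The fitted value lay above 0 in 125 of the 150 (83.3%), against 49.6% of all genes, and the median was 0.44. SFH3 had 7.4, 8.39 and 11.9 CPM with GA3 and 3.08, 3.91 and 3.63 CPM with empty needles (log2 fold change 1.49, edgeR adjusted p = 0.317). The groups did not overlap for this gene. The median fell to 0.10 without GA3 24 h replicate 3 and rose to 0.67 without replicate 1, whose levels over the 150 were the lowest of the 12 libraries.

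Between 3 h and 24 h of GA3, 15 of the 150 genes were higher and 5 lower at the later time, where 5.68% of all genes were called higher and 5.72% lower. XTH7 stood 1.49 higher on the log2 scale (SE 0.209, adjusted p = 0.00192), BZIP34 2.60 (SE 0.415, adjusted p = 0.00347), AT3G06770 2.24 (SE 0.469, adjusted p = 0.0131) and ACT11 2.1 (SE 0.448, adjusted p = 0.0138). The others were AT5G01015, AT2G10940, TRM3, HTH, AT4G18970, AT5G12940, SKU5, AT2G46810, AT3G62930, AT1G06830 and AT5G46730, from 0.91 to 2.78. Lower at 24 h were AT2G16630 (-2.68, SE 0.407, adjusted p = 0.00265), AT3G59890 (-1.83, SE 0.284, adjusted p = 0.00298), CER2 (-1.83, SE 0.286, adjusted p = 0.00312), SFH3 (-0.91, SE 0.242, adjusted p = 0.0337) and SAHH2 (-1.40, SE 0.375, adjusted p = 0.0343). The median of the 150 was 0.35, against -0.03 for all genes, and it was 0.60 without GA3 24 h replicate 1, 0.12 without GA3 24 h replicate 3 and 0.55 without GA3 3 h replicate 1. With total counts as library size it was 0.16. DESeq2 called 32 members higher and 5 lower, beside 9.57% and 8.37% of all genes. The count of 15 rose to 40 without GA3 24 h replicate 1 and fell to 6 without replicate 2, 4 without replicate 3, 3 without GA3 3 h replicate 2 and 8 without GA3 3 h replicate 3. The 17 falls at 3 h likewise became 29 without GA3 24 h replicate 1, and 7, 8, 9 and 5 without untreated replicate 2, untreated replicate 3, GA3 3 h replicate 1 and GA3 3 h replicate 2. The share of all genes called in those fits is not given, so these shifts cannot be read as particular to the 150.

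**Figure D4:**
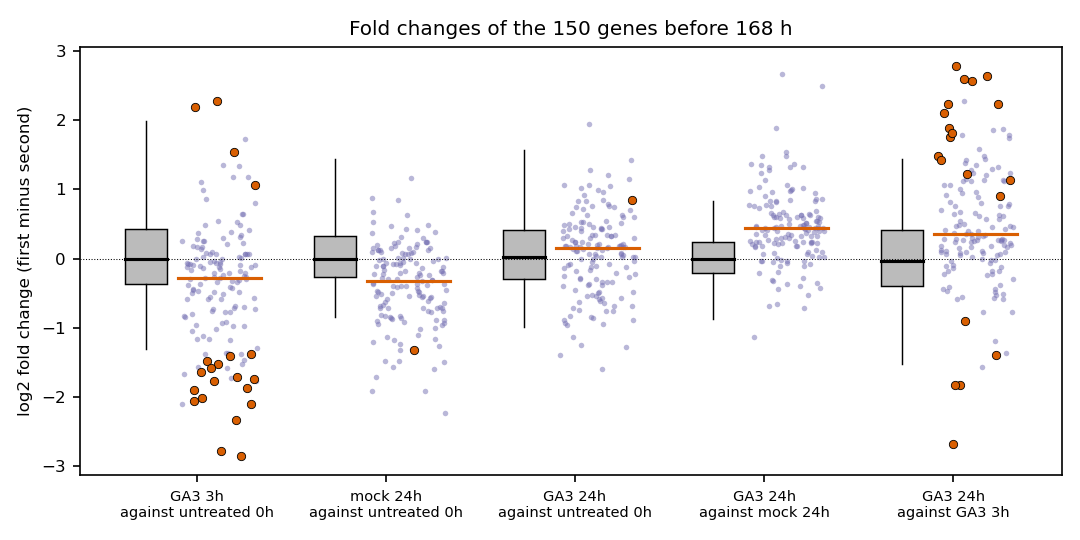
Fitted log2 fold changes (edgeR) of the 150 genes in the 5 comparisons among earlier groups. Points are genes, orange points passed an adjusted p of 0.05, orange lines are medians of the 150, and grey boxes show the quartiles (whiskers, the 5th to 95th percentile) of all 20077 genes. The orange medians lie at -0.28, -0.32, 0.16, 0.44 and 0.35 from left to right.

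The wider families show what surrounded the 150 genes at 168 h. These values come from the same contrast as the choice and carry no test. In the fit of 168 h against untreated leaves the 150 had a median log2 fold change of -3.68 (from -13.1 to -1.75), all 20077 genes a median of 0.01, and 17.2% of all genes were at least 2-fold lower and 15.2% at least 2-fold higher. Of 15 tested fasciclin-like genes 5 were among the 150, and the other 10 had a median of -2.03, with 8 at least 2-fold lower and 0 higher. Among 22 further arabinogalactan protein genes 13 were lower by that measure and 0 higher (median -1.82), and among 17 further xyloglucan endotransglucosylases 10 were lower and 1 higher (median -2.18). The remaining 39 GDSL lipases had a median of 0.31, with 14 lower and 9 higher, and the other 37 thioredoxin superfamily genes 0.14, with 6 each way. The 39 other pectin lyase-like genes had a median of -0.56 (16 lower, 5 higher) and the 43 other aspartyl proteases -0.25 (17 lower, 7 higher). For the lipid-transfer family (40 others) the figures were -0.25, 18 lower and 14 higher, for the Ole e 1 and extensin family (11 others) -1.0, 5 lower and 3 higher, and for leucine-rich repeat families (152 others) -0.37, 54 lower and 14 higher.

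Pathway lists gave the same kind of background. Of 30 lists, 9 held 20 of the 150 genes. Cell wall expansion had 5 (EXPA5, EXLA2, XTH6, XTH7 and XTH8) of 37 tested, and 22 of the other 32 were at least 2-fold lower and 0 higher at 168 h. At 3 h of GA3 against untreated leaves, 4 of those 37 were called higher and 3 lower, beside 8.55% and 5.64% of all genes. At 24 h against untreated leaves, 4 were called higher with GA3 and 1 with empty needles, and 0 lower in both. Over all genes 2.92% were called higher and 2.0% lower with GA3, and 0.608% and 0.169% in mock. The medians of the 37 were 0.43 with GA3 and 0.41 in mock, and 0 were called in GA3 against mock. Cuticle and wax had 6 (CER2, CYP86A2, GPAT8, LTPG1, LTPG2 and LP1) of 41, and 15 of the other 35 were lower at 168 h and 2 higher. At 3 h of GA3 against untreated leaves, 6 of the 41 cuticle genes were called higher and 3 lower, beside 8.55% and 5.64% of all genes. Light harvesting and photosystems had CAB1 of 37, with 32 of the other 36 at least 2-fold lower at 168 h and 0 higher. The Calvin cycle and chlorophyll list had RBCS2B and RBCS3B of 31 (17 of the other 29 lower, 1 higher), auxin response AT1G29500 of 50 (34 of 49 lower, 2 higher), cytokinin response ARR6 of 27, aquaporins DELTA-TIP of 24 (6 of 23 lower, 5 higher), nitrate uptake LBD38 of 35, and indole glucosinolates TGG1 and TGG2 of 31.

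Lists without a member also differed at 168 h. None of the 37 tested cell cycle genes was among the 150, and 22 were at least 2-fold lower and 0 higher. Of 31 tested senescence genes 18 were at least 2-fold higher and 3 lower, with a median of 1.48. NYE1, which opens chlorophyll breakdown, had 31.2, 23.3 and 19.0 CPM in untreated leaves and 87.5 and 109 CPM at 168 h, and SAG12, a late senescence protease gene, was at 0.0491 CPM in 168 h replicate 2 and at 0 elsewhere. The 32 senescence genes summed to 1603 to 2038 CPM in untreated leaves and 3109 to 4310 CPM at 168 h, and reached 4851 CPM in a 3 h library. Leaf mesophyll markers, the check on the labelled tissue, were present in all libraries. The 10 markers summed to 47439 to 56386 CPM in untreated leaves and 22891 to 29524 CPM at 168 h. By gene, 6 of the 10 were at least 2-fold lower at 168 h than untreated and 0 higher (median log2 fold change -1.24). RBCS3B and CA1 are members, and of the other 8 markers 4 were lower by that measure and 0 higher. Among these 8, RCA, the Rubisco activase, stood at 10294, 13334 and 11598 CPM in untreated leaves and 12750.3 and 10743 CPM at 168 h. Flower markers summed to 0.585 to 0.878 CPM untreated and 2.14 to 3.0 CPM at 168 h, with 2 of 9 at 0 in all libraries. Epidermis and trichome markers summed to 399.6 to 419.6 CPM untreated and 610.1 to 745 CPM at 168 h. For guard cell markers the sums were 142 to 169 CPM and 172 to 260.5 CPM. For shoot meristem and stem markers they were 18.6 to 35.1 CPM and 7.47 to 19.0 CPM. These sums follow the most read markers and differ from the genes taken singly. At 168 h, 3 of 8 tested epidermis markers were at least 2-fold lower and 2 higher (median log2 fold change -0.03). Of 10 guard cell markers 4 were lower and 1 higher (-0.65). Of 5 meristem and stem markers 2 were lower and 3 higher (2.22). Seed markers reached 4.86 CPM at 168 h, with 8 of 14 at 0 throughout, and root markers 42.4 CPM, with 5 of 13 at 0. The part of any change in cell make-up in these results was not tested.

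**Figure D5:**
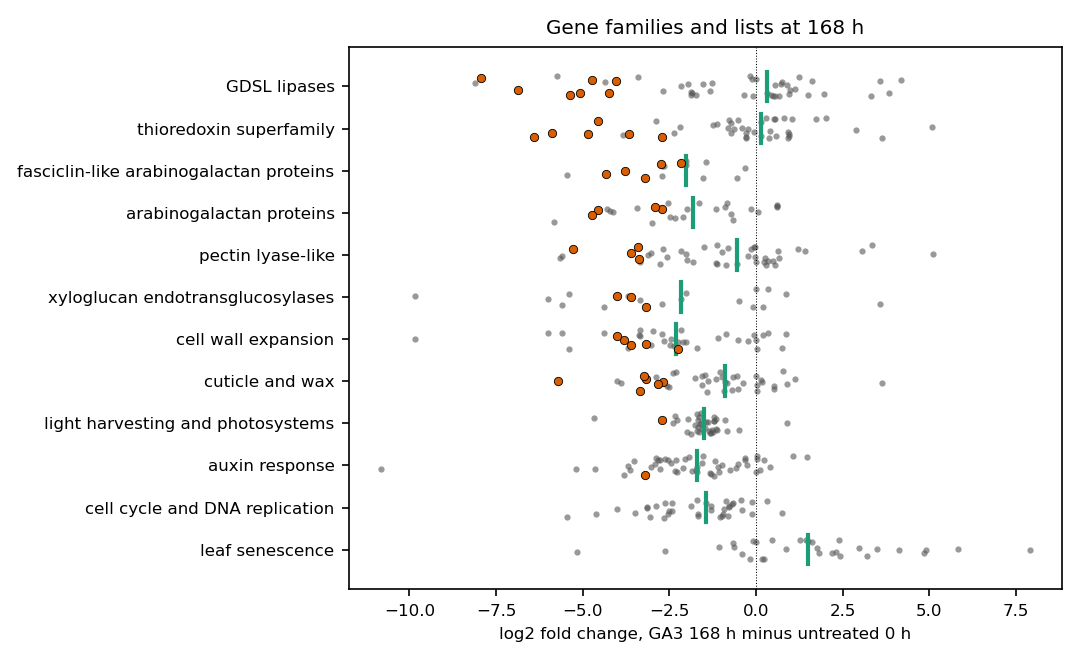
Fitted log2 fold change at 168 h against untreated leaves for the tested genes of 6 product families and 6 pathway lists. Orange points are among the 150, grey points are the other tested genes and green bars are the medians of the grey points. Cell wall expansion and fasciclin-like genes outside the 150 centre at -2.31 and -2.03, and senescence genes at 1.48.

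Opposite-strand reads of the 150 genes made up 0.969% to 1.74% of their reads in the 12 libraries and 1.35% and 1.37% at 168 h. Single genes differed from these sums, which follow the most read genes. More than 20% of a gene's reads were on the opposite strand in 4 of the 150 genes in untreated leaves, in 3 in each of the other earlier groups and in 10 at 168 h. The choice asked for a low own-strand level at 168 h, which by itself raises this share there. No like count was made for all genes. In SFH3 the share was 21.3% at 3 h of GA3, 41.5% at 24 h of GA3 and 92.2% at 168 h. Over untreated leaves, GA3 at 3 h and 24 h, mock and 168 h its opposite-strand reads amounted to 4.21, 5.31, 6.63, 6.25 and 4.7 CPM. In ARR6 the share ran from 24.2% untreated to 86.2% at 168 h, in AT2G16630 from 1.53% at 3 h to 68.4% at 168 h and in AT1G09750 from 2.2% untreated to 48.5% at 168 h. At 168 h these genes had 17, 19, 25 and 35 reads on their own strand in both libraries together. Genes in the file with 1 CPM or more numbered 17020 to 17759 per library, and the top 100 genes took 17.9% to 29.4% of reads. At 168 h the 100 most read genes took 18.6% ± 0.984 (SD, n = 2), the lowest of the 5 groups.

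By position the 150 genes were spread over the genome. Chromosomes 1 to 5 carried 36, 23, 32, 26 and 33 of them, or 24%, 15.3%, 21.3%, 17.3% and 22%, beside 26.5%, 15.2%, 19.8%, 15.2% and 23.3% of the tested genes. Pairs within 10000 bases of each other numbered 10 and involved 17 genes, with no like count made for all genes. Beside the run on chromosome 4 and the overlap of CWLP with AT3G22121, they were AT1G29660 with AT1G29670, AGP9 with AT2G14900, SEOa with SEOR1, TGG2 with TGG1 and RBCS3B with RBCS2B. The coding sequences of AT1G29660 and AT1G29670 share 66.5% of aligned bases and those of SEOR1 and SEOa 48.1%.

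The proteins were slightly short and their genes rich in G and C. Over the 149 coding genes the median protein had 358 residues, beside 387 for the 19437 tested coding genes, and the median GC content of the coding sequence was 46.8%, beside 44.4%. A single coding exon was found in 20.8% and 17.5%.

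In the 250 bases before the start, searched on both strands, TGTCTC (an auxin response element) occurred in 16.1% of the 149 members and in 10.9% of all 27444 promoters of that length. TGACG (as-1) occurred in 22.8% and 18.6%, and AAAATATCT (evening element) in 4.03% and 2.36%. TAACAAA (a gibberellin response element) was found in 10.7% and 16.1%, TGGGCC (a site bound by TCP factors) in 6.71% and 13.7%, and for the W-box the form TTGACC was found in 7.38% and 12.2% and the form TTGACT in 16.8% and 19.1%. CACGTG (G-box) was found in 4.7% and 6.49%, GCCGCC (ethylene response) in 0.671% and 1.87%, GATAAG (I-box) in 12.1% and 12.3% and TATAAA in 45.6% and 47.3%. The W-box forms differ only in their last letter, and no motif lies whole within another. Of the windows printed above, those of AT2G10940 and DELTA-TIP hold none of these letters, that of CWLP holds the auxin, ethylene and gibberellin response motifs, and that of AT3G10720 holds the gibberellin response motif, the TATA motif, as-1 and both W-boxes. A match is a description of the letters only.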

How the data were processed

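RNA from rosette leaves was sequenced in 14 libraries in 5 groups, taken from the labels. The authors deposited raw read counts per gene in 3 columns, of which the first takes reads of either strand and the others a strand each. Per the submitters' processing notes the tool was STAR 2.7.7a and the genome TAIR10, and the gene annotation is not named there. Of the columns kept apart by strand, the one with the greater part of the reads was analysed, on the evidence of the counts. These counts carry no normalisation. The 4 lines of reads in no gene (4.18% to 11.2% of a library) stayed out of all totals. Coordinates, symbols and sequences come from TAIR10.1, whose locus identifiers matched all 150 genes. Total reads were 20448913 to 26537437 per library.

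The members, the 30 pathway lists, the 8 marker lists (1067 of 1126 symbols matched), the motifs and the tests were chosen with earlier results of these data known. All 14 libraries were fitted in R 4.3.3 with edgeR 4.0.16 (TMM factors, filterByExpr by group, 1 coefficient per group, quasi-likelihood test, Benjamini-Hochberg adjustment over 20077 genes). SE is the size of a change over the square root of its F. In counts simulated for GA3 24 h against untreated leaves over 19630 genes, the test recovered 12 of 100 genes changed 2-fold and 95 of 100 changed 4-fold, with 1 of 108 calls false. DESeq2 1.42.0, other scalings, no filter, the column that ignores strand, a replicate block and leaving out each library were tried.

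Genes were named by rule, covering the 15 highest scores, the 5 highest means, the 5 genes on either side of the edge, every member of a pathway list, the 4 smallest p-values past the threshold in each direction of a comparison, and 3 genes of each product family with at least 3 members. Further members named for their role were chosen after their values were seen. Roles and product families were assigned after the members were seen. Chi-square per degree of freedom between libraries was 20.1 to 157 within groups, so none was a copy of another.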

Additional observations from a re-analysis of the deposited data

Results flagged for a closer look

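In 20 of the 150 genes (13.3%) the level differed between 3 h and 24 h of GA3, beside 11.4% of all tested genes. The test was edgeR's for GA3 24 h against GA3 3 h, with an adjusted p under 0.05. The 8 genes listed here had the smallest p-values in their direction. XTH7 (1.49 on the log2 scale), BZIP34 (2.60), AT3G06770 (2.24) and ACT11 (2.1) were higher at 24 h. AT2G16630 (-2.68), AT3G59890 (-1.83), CER2 (-1.83) and SFH3 (-0.91) were lower at 24 h. With each library left out in turn, SFH3 lost its call in 4 of 14 fits, AT3G06770 and ACT11 in 1 each, and the others in 0. Both times were set against the same untreated libraries, and mock libraries existed at 24 h alone.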

How the results depend on the processing

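Over 20 alternative settings the 43 calls of single genes were kept 697 times, lost 161 times and reversed 0 times. DESeq2 gave larger counts, with 7 higher and 30 lower at 3 h of GA3, 7 lower in mock, 3 higher and 3 lower at 24 h of GA3, 3 higher in GA3 against mock and 32 higher between the GA3 times, beside its larger counts over all genes given with each comparison. Leaving out a library in turn gave 3 to 6 higher and 5 to 29 lower at 3 h, 0 to 2 lower in mock, 0 to 2 higher and 0 to 6 lower at 24 h of GA3, and 3 to 40 higher and 3 to 6 lower between the GA3 times. The median of the 150 genes then ran from -0.43 to -0.24 in mock against untreated leaves, from -0.21 to 0.37 in GA3 24 h against untreated leaves, from 0.10 to 0.67 in GA3 against mock and from 0.12 to 0.60 between the GA3 times. Calls kept in all 14 such fits were 3 of 4 rises and 5 of 17 falls at 3 h, 2 of 15 rises and 3 of 5 falls between the GA3 times, and 0 of 1 in mock and 0 of 1 at 24 h of GA3. The share of all genes called in each fit without a library is not given, so the changed counts cannot be read as particular to the 150. The cause of these changes was not tested.

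Deviations of same-numbered libraries had correlations from -0.41 to 0.47 (median 0.063). Those of differently numbered libraries ran from -0.43 to 0.44 (median -0.038). With so few libraries in a group, these values cannot decide whether the numbers pair samples. With the replicate block the mock count was 0 lower. Total counts as library size, chosen after seeing the data, gave 1 lower at 24 h of GA3, and shifted the median of all genes by 0.12 at 3 h, -0.19 between the GA3 times and 0.21 at 168 h.

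Of the 150 genes, 133 stayed in the top 150 with a pseudocount of 0.5 CPM, 102 with 5 CPM, 143 with TMM library sizes and 140 with the column that ignores strand. Without a library 70 to 150 stayed, the lowest 70 without GA3 168 h replicate 1 and 111 without replicate 2. With the column that ignores strand, CWLP, AGP21, AT3G22121, GER1 and AT5G01015, which had 0 to 8 reads there in the 12 libraries together, fell under the filter and gave no value. The median member then stood at 31.4 CPM in untreated leaves and 23.3 CPM in mock. Genes with a few reads at 168 h are limited by depth.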

Other observations

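Genes of aliphatic glucosinolate synthesis and the myrosinases, which split glucosinolates on wounding, lay on opposite sides at 168 h. Both myrosinases, TGG1 and TGG2, were among the 150 genes at 13.1% and 15.7% of their mean over the other 12 libraries. Of 19 tested aliphatic glucosinolate genes, 18 were at least 2-fold higher at 168 h than in untreated leaves and 0 lower, with a median log2 fold change of 2.05. Over all genes tested, 15.2% were at least 2-fold higher and 17.2% lower. The indole glucosinolate and camalexin list, which holds both myrosinases, was mixed, with 8 of 31 higher, 8 lower and a median of 0.20. Sulfur assimilation, which supplies sulfur to these compounds, had 13 of 16 genes higher and 0 lower (median 2.42), and anthocyanin and flavonoid genes had 16 of 25 higher and 3 lower (median 1.39). The aliphatic, sulfur and anthocyanin lists held 0 of the 150 genes. At 24 h against untreated leaves the aliphatic list had medians of 1.21 in mock and 1.48 with GA3. In it 1 and 10 genes were called higher and 0 lower. The sulfur list had medians of 1.69 and 1.55, with 3 and 7 called higher and 0 lower. The anthocyanin list had medians of 0.65 and 0.42, with 0 called higher and 0 and 1 lower. Over all genes 0.608% were called higher in mock and 2.92% with GA3. These lists were picked out after their values were seen. The 168 h values are fitted by edgeR in the contrast that chose the 150 genes, have no mock or untreated libraries at 168 h beside them, and were not tested.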
